A study of Homo sapiens with 372 samples.

Results

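The actin cytoskeleton genes described here are the 10 genes ACTB, ACTG1, PFN1, CFL1, TMSB4X, TMSB10, TPM1, TPM3, TPM4 and MYL6. They were taken by gene symbol from the deposited expression table, which lists 9664 genes. All 10 are listed, and all 10 passed the detection limit, which asks for a value above 0 in more than 30% of cells in 1 or more conditions, as did 9655 genes in all.

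The values come from single A2780 cells, an established human ovarian cancer cell line, captured on the Fluidigm C1 system and sequenced with Smart-seq2, a full-length method for RNA with a polyA tail. The 6 conditions were an untreated control (46 cells), paclitaxel at 5 nM for 16 h (56 cells) and 48 h (53 cells), celecoxib at 75 µM for 2 h (63 cells) and 16 h (61 cells), and 5 nM paclitaxel with 75 µM celecoxib for 16 h (59 cells, called the combination). Paclitaxel holds microtubules in their polymer form, and celecoxib inhibits cyclooxygenase-2. In all conditions the cells were detached with trypsin and resuspended before capture. The labels give each condition 1 code that no other condition carries, without saying what it marks, and name no replicate cultures. A condition is therefore 1 sample here, no test between conditions was made, and each SD below is a spread over cells.

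Actin is a small protein that exists as free monomers and as filaments. Profilin brings monomers to growing filament ends, cofilin cuts old filaments, and the beta-thymosins hold monomers in reserve. Tropomyosins lie along the filaments and control which proteins reach them, and nonmuscle myosin, which carries the light chain MYL6, pulls on them. The pool of free actin monomers also holds back a coactivator of serum response factor, a transcription factor that binds the CArG box and drives many actin genes. In dividing cells the same proteins build the contractile ring that separates the daughter cells.

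The promoters show which of these genes carry that DNA element near the start site. RefSeq promoter windows on GRCh38.p14, running from 250 bases before to 50 bases after 1 start per gene, were at hand for 9 of the 10 genes (all but ACTB). A CArG box was found, on both strands searched, in the windows of ACTG1 and TPM4. Over all 27305 windows of the table, 1.29% held one, and 0.950% of the 7575 windows of genes tested here. The bases from 200 to 61 before the start are shown for both, with the CArG box in capitals. They are also shown for TPM3, whose window had no match and which is the tropomyosin with the largest difference from control. The ACTG1 bases are chr17:81512860-81512999 (minus strand), the TPM4 bases chr19:16067338-16067477 (plus strand) and the TPM3 bases chr1:154183279-154183418 (minus strand). In GENCODE 44 all 3 stretches lie inside their own gene, upstream of the start used here, and none overlaps an annotated exon of it.
ACTG1: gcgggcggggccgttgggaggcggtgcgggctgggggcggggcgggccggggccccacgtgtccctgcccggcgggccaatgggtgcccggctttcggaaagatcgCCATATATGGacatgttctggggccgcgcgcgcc
TPM4: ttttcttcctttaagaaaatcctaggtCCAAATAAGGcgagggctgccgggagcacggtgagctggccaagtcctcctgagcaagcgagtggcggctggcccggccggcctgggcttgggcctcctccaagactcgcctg
TPM3: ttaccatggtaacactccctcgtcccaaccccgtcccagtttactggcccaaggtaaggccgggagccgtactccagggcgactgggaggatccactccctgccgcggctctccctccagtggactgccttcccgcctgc

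The CArG box begins 94 bases before the start in ACTG1 and 173 bases before it in TPM4. A GC box (GGGCGG, either strand), the site of SP1-type factors, was in all 9 windows, compared with 44.6% of all windows and 71.8% of the windows of tested genes. A match describes the letters of the window only. The tropomyosin genes and ACTG1 have further start sites, and the expression values add all transcripts of a gene.

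The expression value, E, is log2(N/10 + 1), where N is a gene's length-scaled transcript level (TPM) in a cell relative to the highest spike-in RNA of that cell. Because N is per transcript length, levels can be compared between genes. Differences in E are given in 2 ways: on the deposited scale, which follows the spike-ins and so keeps changes in the whole transcript content of a cell, and at the same total, after N of all genes was rescaled to 1 common sum in every cell. Compared with control, the median log2 total per cell differed by -0.99 and -0.64 after paclitaxel for 16 and 48 h, by -0.76 and -1.52 after celecoxib for 2 and 16 h, and by 0.49 in the combination. The number of reads per cell is not given in the sources used here, so depth is described by genes with a value above 0, whose median was 6126 to 6630 per condition (4746 to 8499 over single cells). By blocks of 96 library indices, control lay wholly in block 4, paclitaxel 16 h in block 1, celecoxib 2 h in block 2 and celecoxib 16 h in block 3, while paclitaxel 48 h (22 cells in block 2, 31 in block 4) and the combination (34 in block 1, 25 in block 3) were split. The drug, whatever the label code marks and, mostly, the index block cannot be told apart, and every difference from control rests on the same 46 control cells. Of the epithelial markers, only KRT18 could be checked, with mean E between 0.45 and 1.11. Of 9 markers of blood, fibroblast and endothelial cells, only LYZ (mean E 0.11 to 0.24) and COL1A2 (0.20 to 0.96) are in the table. These values were low, as were those of KRT18. COL1A2 was above KRT18 after 16 h of celecoxib (0.48 and 0.45). LYZ was above 0 in a larger share of cells than KRT18 in every condition, so these markers do not show what the cells are.

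In untreated cells the order of mean E was ACTB (9.48), MYL6 (8.92), PFN1 (8.57), CFL1 (8.46), ACTG1 (7.84), TMSB10 (6.26), TPM3 (6.17), TPM4 (4.15), TMSB4X (2.96) and TPM1 (2.36). Only the steps from ACTG1 to TMSB10 (1.59) and from TPM3 to TPM4 (2.02) were larger than the SD over cells of both genes. The order changed only by neighbours changing places: ACTB with MYL6 and PFN1 with CFL1. By mean N over all 338 cells, ACTB ranked 15 and MYL6 ranked 24 among the 9664 genes, whereas TPM1 ranked 2929.

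**Figure D1:**
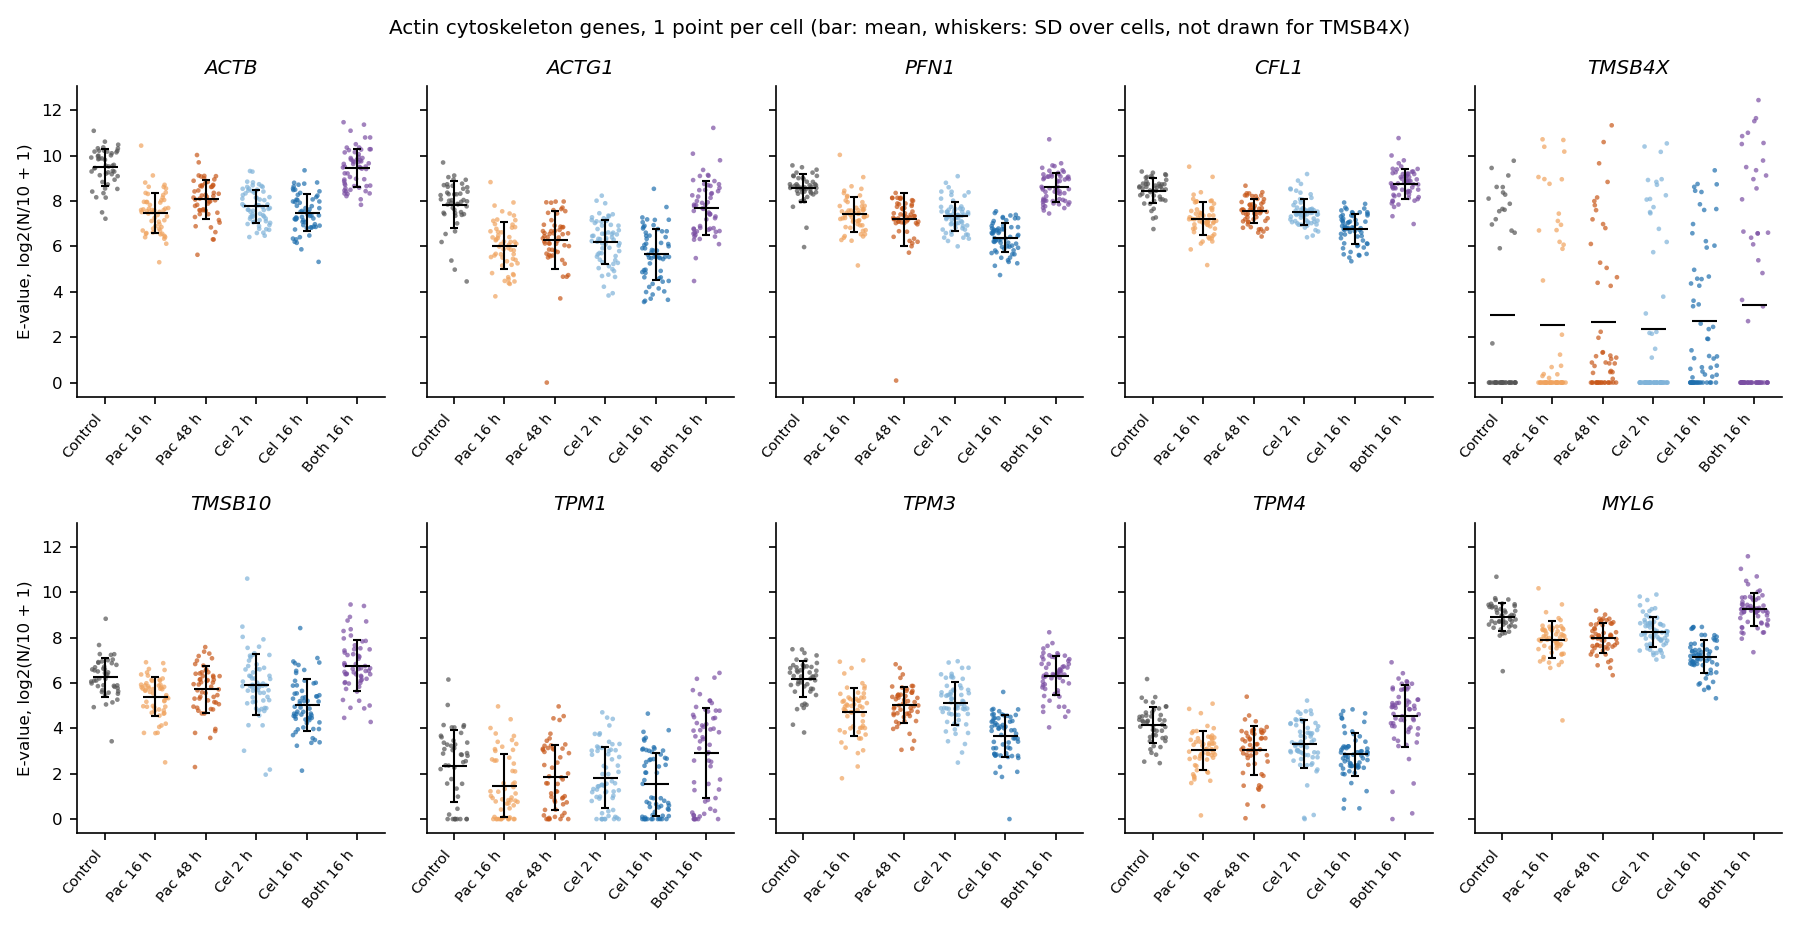
E-values (log2(N/10 + 1), y axis) of the 10 genes in single cells of the 6 conditions (x axis), with the mean as a bar and the SD over cells as whiskers (not drawn for TMSB4X). On this spike-in scale ACTB, ACTG1, PFN1, CFL1, TPM3 and MYL6 sit lower with each single drug than in control and near control in the combination, while TMSB4X is split between cells listed at 0 and cells reaching 12.5.

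Both cytoplasmic actins had lower E-values with each drug alone. ACTB, which encodes beta-actin, ran from 7.22 to 11.1 over control cells with a median of 9.56. Its lowest, median and highest values were 5.31, 7.54 and 10.4 at 16 h and 5.63, 8.16 and 10.0 after 48 h of paclitaxel. They were 6.42, 7.74 and 9.33 at 2 h and 5.32, 7.41 and 9.36 after 16 h of celecoxib, and 7.84, 9.52 and 11.5 in the combination. The ranges overlap in every condition, but 55 of 56 cells after 16 h of paclitaxel, 51 of 53 at 48 h, 63 of 63 after 2 h of celecoxib and 61 of 61 at 16 h lay below the control median, compared with 31 of 59 combination cells. The mean E of ACTB differed from control (9.48 ± 0.83, SD over 46 cells) by -1.99, -1.40, -1.72, -1.99 and -0.02 in the order paclitaxel 16 and 48 h, celecoxib 2 and 16 h and combination.

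ACTG1, which encodes gamma-actin, had a median E of 8.00 in control cells (4.46 to 9.70). Its medians were 6.09 and 6.40 after paclitaxel for 16 and 48 h, 6.32 and 5.64 after celecoxib for 2 and 16 h and 7.68 in the combination. Its mean E differed from control (7.84 ± 1.04) by -1.81, -1.56, -1.63, -2.19 and -0.14 in the same order. A single cell after 48 h of paclitaxel is listed at 0. The actin coding sequences are nearly identical, so reads shared between them, or with their processed copies elsewhere in the genome, were divided by the authors' RSEM estimate, and how the 2 genes split is less certain than their sum.

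Once every cell was given the same total, the actins were still lower than in control in all 5 treatments, the combination included. ACTB differed by -1.18, -0.77, -1.14, -0.59 and -0.72 in mean E at the same total, and ACTG1 by -1.003, -0.95, -1.06, -0.81 and -0.84. In the combination 50 of 59 cells lay below the control median of ACTB at the same total and 53 of 59 below that of ACTG1. The combination cells, whose actin values were close to control on the spike-in scale, thus held less actin RNA relative to their other transcripts.

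The values at the same total can also be read as shares of the summed N of a cell, in which the spike-in cancels. ACTB and ACTG1 together took a median of 0.702% of the total in control cells (0.212 to 1.15%). The median share was 0.313% and 0.402% after paclitaxel for 16 and 48 h, 0.318% and 0.413% after celecoxib for 2 and 16 h and 0.366% in the combination. All 56 cells after 16 h of paclitaxel, 50 of 53 at 48 h, 61 of 63 and 51 of 61 celecoxib cells and 52 of 59 combination cells fell under the control median. The ratio of ACTB to ACTG1 within a cell moved little: its median was 3.03 in control and 2.64 to 3.79 in the treatments, with an SD of 0.59 to 0.75 log2 units over cells. All 10 genes together took 1.72% of the total in control and 1.15 to 1.24% in the treatments, and the 9 genes without TMSB4X took 1.63% and 1.10 to 1.15%.

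**Figure D2:**
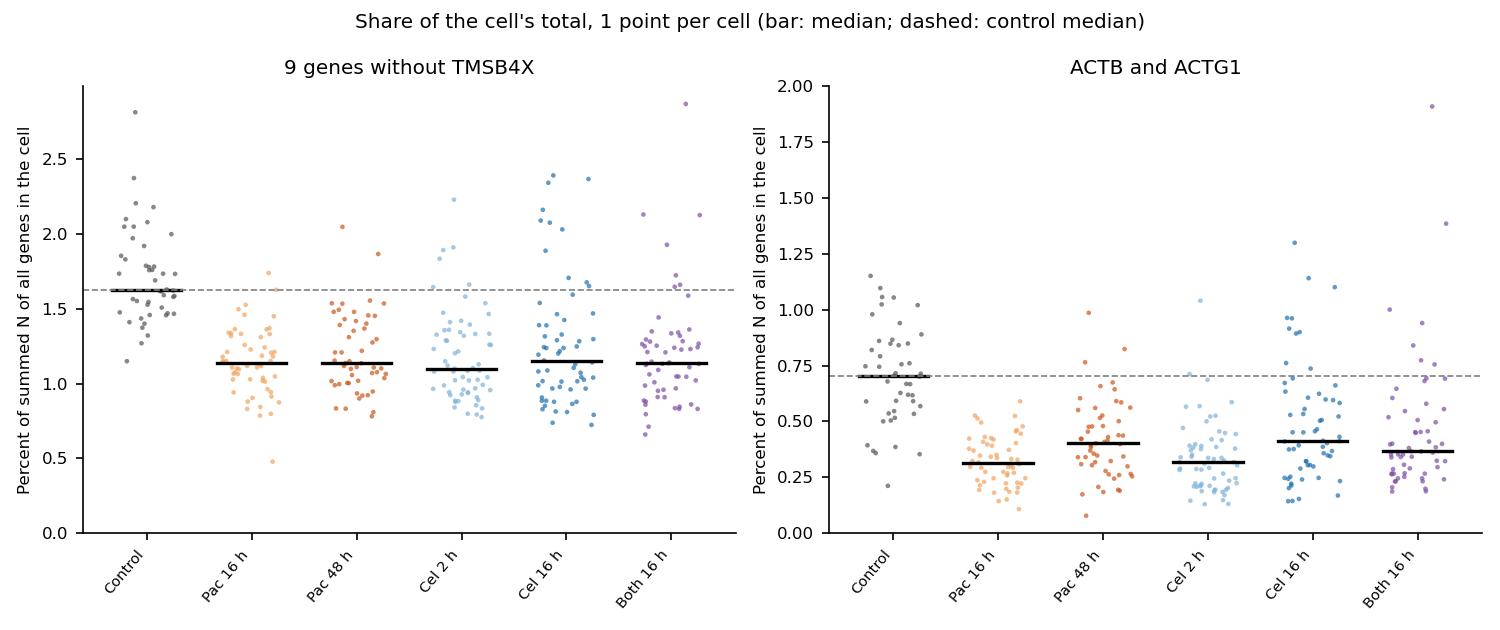
Percent of the summed N of all genes in a cell (y axis) taken by 9 of the genes (left) and by ACTB with ACTG1 (right) in single cells of the 6 conditions (x axis), with bars at the medians and a dashed line at the control median. The actin pair stands at 0.702% in control and at 0.313 to 0.413% in all 5 treatments.

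Control and part of the paclitaxel 48 h cells shared index block 4, which allows 1 comparison with control inside a block. Against the 46 control cells, the 31 paclitaxel cells of block 4 differed in mean E by -1.07 for ACTB, -1.22 for ACTG1 and -1.08 for PFN1 on the deposited scale. At the same total the differences were -0.57, -0.72 and -0.58, so ACTG1 stayed past the limit of log2 of 1.5 (0.58) there, and ACTB and PFN1 fell just short of it. The median actin share was 0.436% in these 31 cells and 0.366% in the 22 paclitaxel 48 h cells of block 2, where celecoxib 2 h cells had 0.318%. Within block 1 the share was 0.383% in the combination and 0.313% with paclitaxel for 16 h, and within block 3 it was 0.342% in the combination and 0.413% with celecoxib for 16 h. Within paclitaxel 48 h, block 2 minus block 4 in deposited mean E was -0.81 (ACTB), -0.83 (ACTG1) and -0.73 (PFN1). After rescaling to the same total these values were -0.50, -0.55 and -0.44, while TMSB10 differed the other way, by 0.56. The size of the paclitaxel 48 h differences of ACTB, ACTG1 and PFN1 thus depended on the block, though both blocks lay below control. The part of the block in the differences from control was not tested beyond this.

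PFN1 encodes profilin and CFL1 cofilin, and their levels were close to each other in control cells. PFN1 had a lowest, median and highest E of 5.97, 8.61 and 9.57 in control, 5.16, 7.39 and 10.0 at 16 h and 0.089, 7.34 and 8.36 after 48 h of paclitaxel. The values were 6.01, 7.35 and 9.10 at 2 h and 4.74, 6.42 and 7.55 after 16 h of celecoxib, and 7.45, 8.57 and 10.7 in the combination. One paclitaxel 48 h cell lies far below the rest. PFN1 differed from control in mean E by -1.16, -1.38, -1.23, -2.18 and 0.03 on the deposited scale and by -0.35, -0.76, -0.66, -0.78 and -0.66 at the same total. CFL1 differed by -1.23, -0.91, -0.93, -1.68 and 0.30 on the deposited scale and by -0.42, -0.28, -0.36, -0.28 and -0.40 at the same total, within the limit in all 5. Both genes have processed copies elsewhere in the genome with which reads can be shared.

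The ratio of PFN1 to CFL1 within a cell, a pair chosen after its values were seen, does not depend on either scaling. Its median was 1.10 in control and 1.13 after 16 h of paclitaxel, then 0.843 at 48 h, 0.877 and 0.737 after celecoxib for 2 and 16 h and 0.879 in the combination. PFN1 was the higher of the pair in 30 of 46 control cells and 41 of 56 cells after 16 h of paclitaxel. It was the higher in 14 of 53 cells at 48 h, 17 of 63 and 10 of 61 celecoxib cells and 19 of 59 combination cells.

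Of the beta-thymosins, TMSB10 was present in every cell, with a median E of 6.28 in control (3.43 to 8.83), 5.63 and 5.93 after paclitaxel for 16 and 48 h, 5.90 and 4.92 after celecoxib for 2 and 16 h and 6.62 in the combination. Its mean E differed from control by -0.86, -0.54, -0.33, -1.21 and 0.51 on the deposited scale. At the same total its differences were -0.07, 0.07, 0.23, 0.15 and -0.18, all within the limit and of both signs.

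TMSB4X, the thymosin most cell types express highly, split the cells of every condition. It is listed at 0 in 170 of 338 cells and reached an E of 9.78 in control, 10.7 and 11.3 after paclitaxel for 16 and 48 h, 10.5 and 9.36 after celecoxib for 2 and 16 h and 12.5 in the combination. Values above 0 were found in 39.1% of control cells (exact Clopper-Pearson 95% interval 25.1 to 54.6%, counting error over the cells of 1 condition only) and 44.6% of paclitaxel 16 h cells (31.3 to 58.5%). They were found in 66.0% of paclitaxel 48 h cells (51.7 to 78.5%), 36.5% of celecoxib 2 h cells (24.7 to 49.6%), 68.9% of celecoxib 16 h cells (55.7 to 80.1%) and 42.4% of combination cells (29.6 to 55.9%). Of the positive cells, E was under 3 in 18 of 35 after 48 h of paclitaxel and 19 of 42 after 16 h of celecoxib, the conditions with the 2 larger shares. It was under 3 in 1 of 18 positive cells in control, 8 of 25 after 16 h of paclitaxel, 5 of 23 after 2 h of celecoxib and 1 of 25 in the combination.

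Cells with E of at least 7 were 13 of 46 in control, 10 of 56 and 9 of 53 with paclitaxel, 13 of 63 and 9 of 61 with celecoxib and 14 of 59 in the combination. In paclitaxel 48 h, TMSB4X was above 0 in 72.7% of the block 2 cells and 61.3% of the block 4 cells. The TMSB4X transcript has many near-identical copies with which reads can be shared. Whether an exact 0 marks a failed estimate or an absent transcript was not tested, so it is called here only listed at 0. Of the 500 genes highest in mean N, 2 are at 0 in over 25% of all cells, TMSB4X among them. Cells with TMSB4X above 0 and at 0 had a median of 6586 and 6646 genes in control, 5961 and 6300 after 16 h and 6351 and 6242 after 48 h of paclitaxel. The medians were 6169 and 6150 after 2 h and 6260 and 6364 after 16 h of celecoxib, and 6490 and 6064 in the combination, so the order was not the same in all conditions. The other 9 genes differed between the 2 kinds of cell, at the same total, by between -0.73 (TPM1) and 0.64 (TMSB10) in any condition. The mean E of TMSB4X differed from control by -0.44, -0.31, -0.61, -0.23 and 0.44, all small beside its SD over cells (3.89 in control), though the value after 2 h of celecoxib was past the limit. These means mix the share of cells above 0 with the level in them. Over the cells above 0 only, mean E differed from control by -1.91, -3.56, -1.11, -3.60 and 0.46 in the same order.

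**Figure D3:**
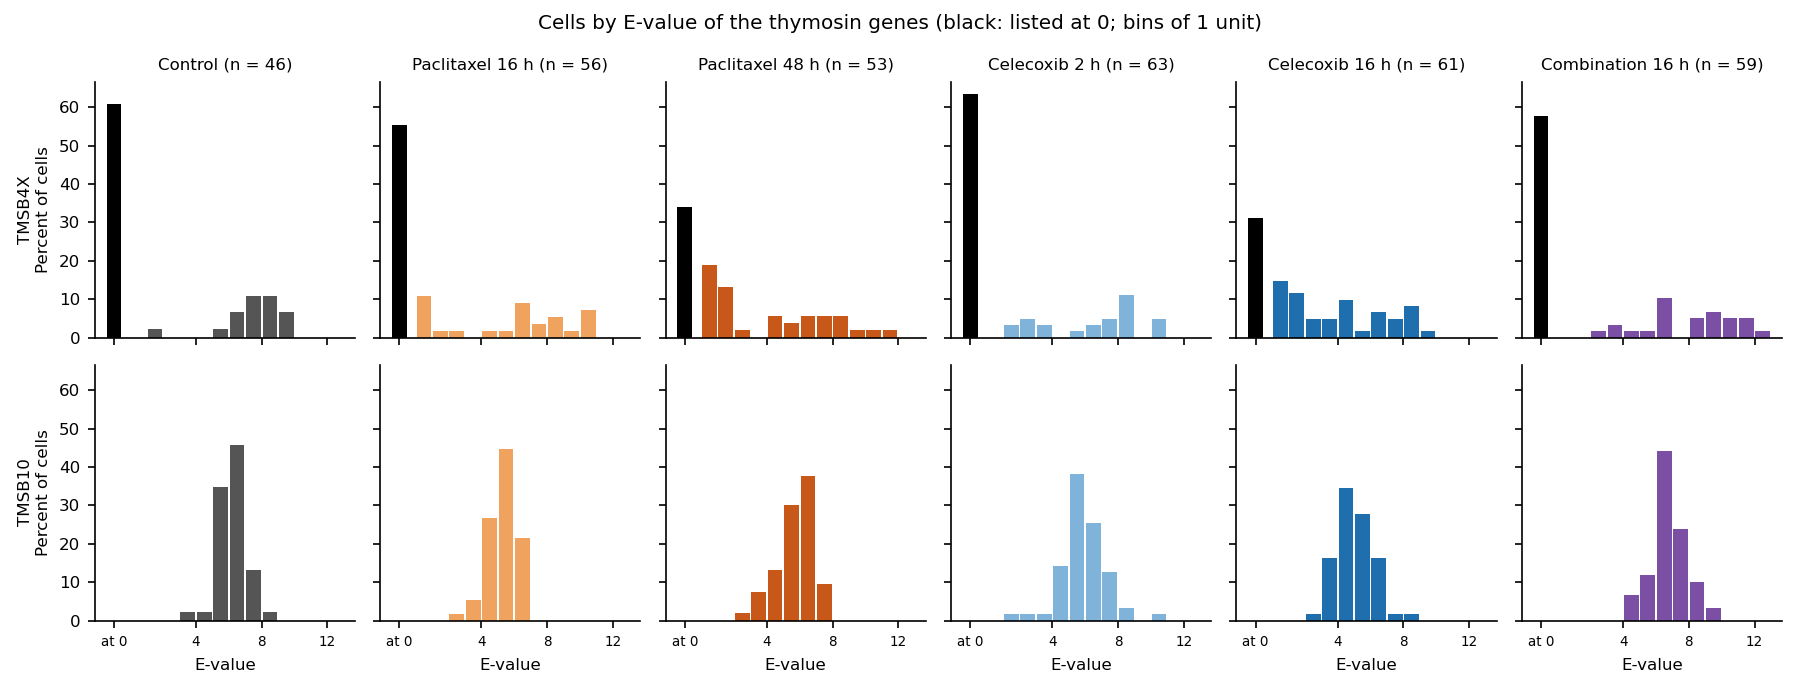
Percent of cells (y axis) by E-value in bins of 1 unit (x axis) for TMSB4X (top) and TMSB10 (bottom) in the 6 conditions, with cells listed at 0 in black. TMSB4X has cells at 0 and cells above 9 in every condition, while TMSB10 forms a single group of cells with none at 0.

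Of the 3 tropomyosin genes, TPM3 was highest in every condition. Its lowest, median and highest E were 3.82, 6.30 and 7.49 in control, 1.80, 4.94 and 7.00 at 16 h and 3.05, 5.08 and 6.83 after 48 h of paclitaxel. They were 2.49, 5.07 and 6.96 at 2 h and 0, 3.91 and 5.60 after 16 h of celecoxib, and 4.04, 6.39 and 8.23 in the combination. All 61 celecoxib 16 h cells lay below the control median of TPM3, and 29 of them lay below the lowest control cell. The mean E of TPM3 differed from control by -1.44, -1.13, -1.06, -2.51 and 0.15 on the deposited scale and by -0.65, -0.52, -0.50, -1.20 and -0.53 at the same total. The value after 16 h of celecoxib was the largest difference of any of the 10 genes in any treatment on both scales.

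TPM4 differed by -1.13, -1.13, -0.86, -1.29 and 0.41 on the deposited scale and by -0.40, -0.58, -0.33, -0.05 and -0.22 at the same total. TPM3 made up a median of 78.0% of the summed N of TPM1, TPM3 and TPM4 in control cells and 56.8% after 16 h of celecoxib, while the share of TPM4 went from 17.9% to 29.0%. In the other 4 treatments TPM3 held 69.5 to 74.2%. The SD of the TPM3 share over cells was 13.3 percentage points in control and 19.3 after 16 h of celecoxib. The tropomyosin comparison between 2 treatments that share no control cells gave the same order: TPM3 was higher by 0.67 in mean E at the same total in the combination than with celecoxib alone for 16 h, and by 0.81 inside index block 3.

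TPM1 was low, with medians of 0.92 to 3.43, and listed at 0 in 6 to 11 cells of each condition. Its mean E differed from control by -0.88, -0.52, -0.52, -0.83 and 0.56 on the deposited scale and by no more than 0.38 in size at the same total. Combination cells of block 1 had a mean E 1.53 higher than those of block 3 (3.57 and 2.04), the largest difference between blocks for any of the 10 genes, so its combination value depends on the block. In MYL6, the essential light chain of nonmuscle myosin, the median E was 8.95 in control, 7.95 and 8.04 with paclitaxel, 8.22 and 7.20 with celecoxib and 9.24 in the combination. Its differences from control were -1.02, -0.93, -0.66, -1.76 and 0.32 on the deposited scale and -0.21, -0.30, -0.09, -0.37 and -0.38 at the same total, within the limit in all 5.

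**Figure D4:**
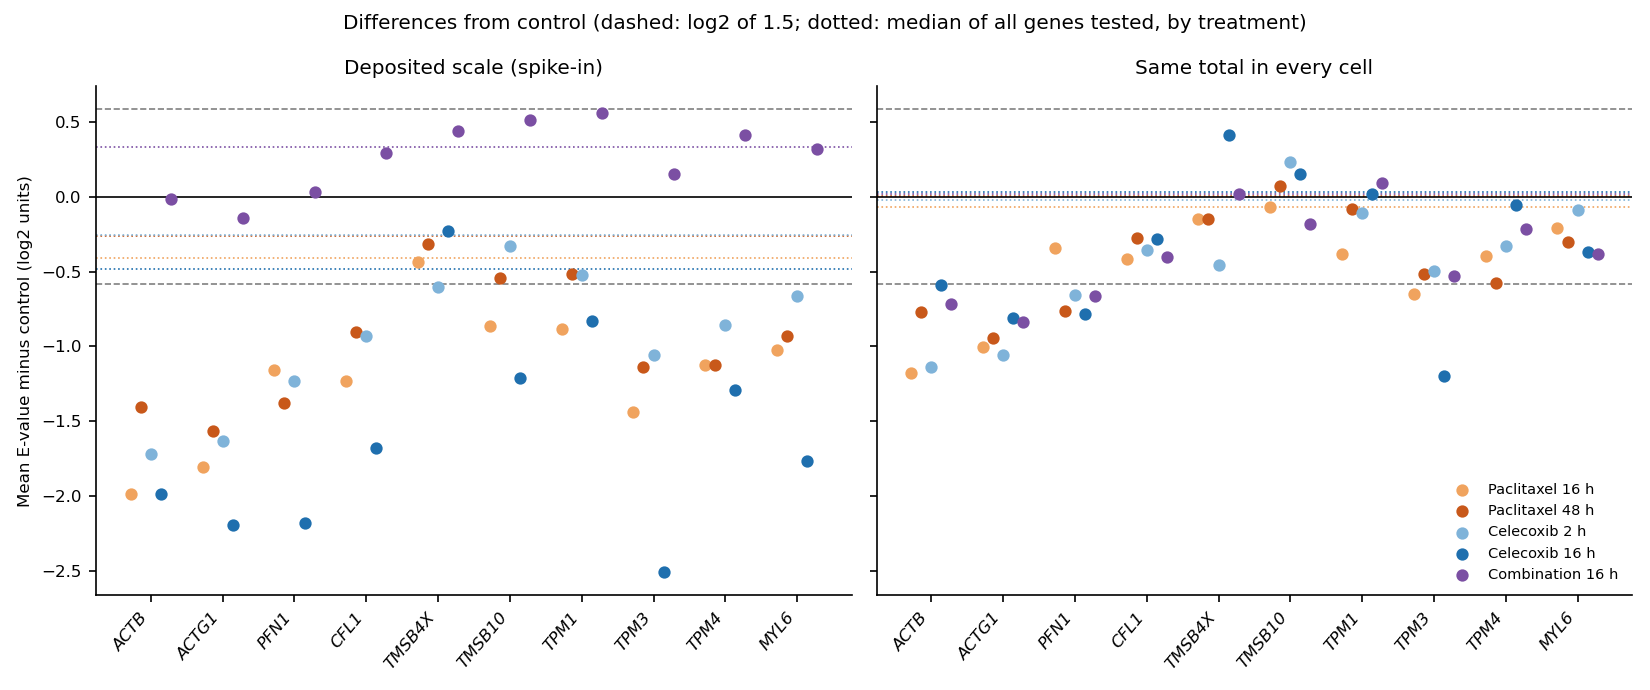
Mean E minus control (y axis, log2 units) of the 10 genes (x axis) in the 5 treatments, on the deposited scale (left) and at the same total (right), with dashed lines at log2 of 1.5 and dotted lines at the median of all genes tested. On the left 7 to 9 of the 10 points of each single-drug treatment lie under the lower dashed line, and on the right those of ACTB and ACTG1 do in all 5 treatments. ACTB after 16 h of celecoxib lies barely under it.

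Counted against the limit of log2 of 1.5, on the deposited scale 9, 7, 8, 9 and 0 of the 10 genes were lower than control in the order paclitaxel 16 and 48 h, celecoxib 2 and 16 h and combination, and none was higher. Of all 9655 genes tested, 37.3%, 26.6%, 25.7%, 43.9% and 1.76% were lower and 0.0932%, 0.922%, 1.12%, 0.383% and 30.4% were higher. The limit is reached more easily by abundant genes on this log scale. Among the 552 genes with a mean E of at least 5 over the conditions, 73.7%, 67.4%, 53.3%, 97.6% and 0% were lower, and among the 7 actin cytoskeleton genes of that group 7, 6, 6, 7 and 0 were. In the combination 53.1% of the 552 abundant genes were higher, and none of these 7.

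At the same total, 3, 3, 3, 4 and 3 of the 10 genes were past the limit downwards and none upwards. The background was 10.0%, 5.78%, 8.12%, 7.95% and 5.80% downwards and 1.40%, 3.28%, 3.31%, 7.37% and 5.96% upwards over all genes tested. Among the 552 abundant genes it was 7.97%, 9.96%, 9.42%, 23.7% and 10.3% downwards, with 3, 3, 3, 4 and 3 of 7. The genes counted were ACTB and ACTG1 in all 5 treatments, PFN1 in all but paclitaxel 16 h, and TPM3 after 16 h of paclitaxel and of celecoxib. ACTB after 16 h of celecoxib (-0.589) was barely past the limit, which is 0.585 in size. TPM4 after 48 h of paclitaxel (-0.576) was barely within it. Of the 552 abundant genes, 4 had a lower difference than ACTB after 16 h of paclitaxel and 4 after 2 h of celecoxib, whereas 128 had one after 16 h of celecoxib. The median over the 10 genes at the same total was -0.39, -0.41, -0.41, -0.32 and -0.39, beside -0.07, 0.00, -0.02, 0.03 and 0.02 over all genes tested.

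Between treatments, without the control cells, the combination had a median member difference of 1.48 in E above paclitaxel at 16 h and 1.97 above celecoxib at 16 h on the deposited scale, beside 0.80 and 0.88 over all genes tested. At the same total these medians were 0.14 and -0.07. ACTB was higher by 1.97 in the combination than with either drug alone on the deposited scale, and by 0.46 and -0.13 at the same total. From 16 to 48 h of paclitaxel ACTB differed by 0.40 and PFN1 by -0.42 at the same total. From 2 to 16 h of celecoxib ACTB differed by 0.55 and TPM3 by -0.70 at the same total, opposite in sign.

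Across the cells of a condition the genes varied together on the deposited scale, which follows the total per cell. The mean of Pearson's r over the 45 pairs was 0.28 to 0.41 in the 6 conditions, and 0.07 to 0.16 at the same total. Over the cells of a condition PFN1 and CFL1 followed the total most closely (mean r 0.82 and 0.80), whereas TPM1 (0.23) and TMSB4X (-0.06) hardly did. ACTB and ACTG1 kept the highest r of any pair at the same total, 0.68 on average over the conditions (0.55 to 0.79), though reads shared between them bear on it. ACTB with TPM4 (0.39) and ACTB with CFL1 (0.37) came next. The cells of a condition share a label code and the 45 pairs share genes, and no p was computed.

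**Figure D5:**
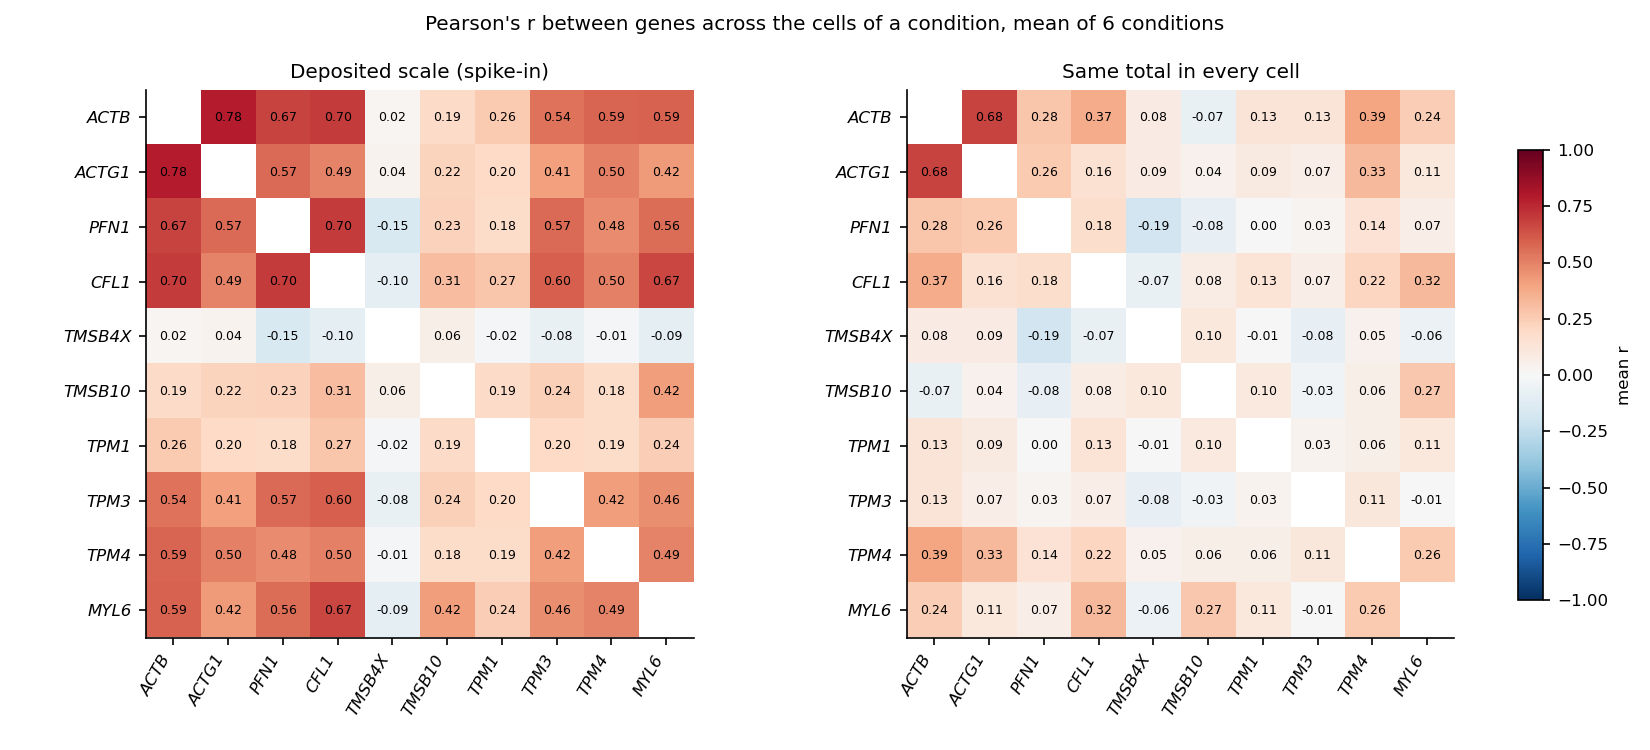
Pearson's r between each pair of genes (rows and columns) across the cells of a condition, averaged over the 6 conditions, on the deposited scale (left) and at the same total (right). ACTB and ACTG1 keep 0.68 at the same total, and TMSB4X has values near 0 with the others on both scales.

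The 5 genes whose E-values at the same total were most like the mean of the 10 genes, among 7561 detected in over 30% of the cells of every condition, were MYL9 (mean r over the 6 conditions 0.44), DPYSL2 (0.32), MYL12A (0.31), CD63 (0.26) and PLD3 (0.26). MYL9 and MYL12A encode regulatory light chains of nonmuscle myosin, DPYSL2 a cytoskeletal regulator of neurite growth and CD63 a tetraspanin of late endosomes. TMSB4X, which varies most from cell to cell, weighs heavily in that mean. Without it the 5 genes were MYL9 (0.41), VCL (0.33), CNN2 (0.31), ARPC5 (0.27) and ANXA2 (0.26), so of the first 5 only MYL9 was shared. Most like ACTB alone were MYL9 (0.38), the calponin CNN2 (0.32), the cofilin partner WDR1 (0.31), the translation factor EIF5A (0.29) and the tropomyosin TPM2 (0.28).

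Other genes of the actin system were taken from lists by function, of which 101 genes were tested. At the same total 10, 2, 5, 13 and 6 of the 101 were past the limit downwards and 1, 3, 4, 2 and 4 upwards. That is 9.90%, 1.98%, 4.95%, 12.9% and 5.94% downwards, near or below the background of all genes in 4 treatments and above it after 16 h of celecoxib. Of the 19 genes of the Arp2/3 complex and its activators, which branch filaments, 14, 11, 9, 17 and 0 were lower on the deposited scale. That is 73.7%, 57.9%, 47.4%, 89.5% and 0%, beside 37.3%, 26.6%, 25.7%, 43.9% and 1.76% of all genes tested. At the same total 2, 0, 3, 2 and 0 of the 19 were lower. The share of all genes tested was then 10.0%, 5.78%, 8.12%, 7.95% and 5.80%. Of 20 genes of filament turnover 5, 2, 1, 5 and 3 were lower at the same total (25%, 10%, 5%, 25% and 15%). Of 8 formin and elongation genes 1 was lower, in the combination. A list of 8 is too short to be set apart from these shares.

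Some of these genes were past the limit on both scales in at least 1 treatment. The share of all genes tested that were was not computed, so how the lists compare is not known. Only the 12 with the largest difference in size at the same total are named here. Unless said otherwise, values are given for treatments in which the gene was past the limit on both scales. TMSB15A, another beta-thymosin, was lower on both scales in all 5, with a mean E of 3.03 ± 1.85 in control and differences at the same total of -0.83, -0.72, -0.59, -1.63 and -0.96. The paralog TMSB15B, which can share its reads, differed by -0.88 after 16 h of celecoxib and -0.78 in the combination. WDR1, which helps cofilin take filaments apart, differed by -1.07 after 16 h of paclitaxel, and CAPZA2, a filament-capping subunit, by -0.88. In the combination WDR1 differed by -0.73 at the same total, with a deposited difference of -0.27, within the limit. WASF1, an activator of Arp2/3, differed by -0.99 after 16 h of paclitaxel, -0.91 at 2 h and -0.74 after 16 h of celecoxib.

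At 16 h of celecoxib 4 more of the 12 named genes differed at the same total. They were PFN2 (-1.05), the second profilin, TPM2 (-1.01), the cofilin relative DSTN (-0.95) and ACTN1 (-0.91), which bundles filaments. TPM2 also differed by -0.66 at 2 h. In the combination TPM2 differed by -0.94 at the same total, with a deposited difference of -0.28, within the limit. INF2, a formin, differed by -0.89 in the combination. The other 2 of the 12 named genes were higher. MYO10, a myosin of filopodia, was higher at the same total in all 5 treatments, by 0.89, 0.75, 1.29, 1.41 and 0.53. The order is paclitaxel 16 and 48 h, celecoxib 2 and 16 h and combination. On the deposited scale MYO10 was higher by 0.17, 0.20, 0.78, 0.16 and 1.08. Only after 2 h of celecoxib was it past the limit on both scales. GSN, which encodes the filament-severing protein gelsolin, was higher after 48 h of paclitaxel by 0.87 at the same total and 0.63 on the deposited scale. In the combination GSN was higher by 0.51 and 0.85 on these 2 scales.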

How the data were processed

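The authors trimmed reads with Trim Galore, aligned them with Bowtie2 to the GENCODE 28 transcripts (hg38) plus 3 spike-in RNAs, took TPM from RSEM 1.3.0, divided by the highest spike-in and removed cells with low housekeeping genes, a list not checked here for these 10 genes. Of 372 labelled cells, 34 are not in the table analysed. The deposited values are log2 values, E = log2(N/10 + 1), to 3 decimals for 338 cells, which were all mapped to samples by name. A state label per cell, from the authors' model, is also in the file. From these, N was recovered, rescaled to the same total (the median over cells), and mean E was compared with control. A gene was called past log2 of 1.5. The pseudocount of 10 understates changes of weakly expressed genes. Scripts were tested on simulated data. The genes and lists were chosen with earlier results of these data known. All 10 genes are named, as are up to 12 list genes past the limit on both scales with the largest difference at the same total, and the 5 genes most like the mean. Alternatives were another scaling, summary, pseudocount, filter or index block. Promoters are from RefSeq. The scripts ran in Python 3.11.15 with pandas 2.3.3, numpy 2.4.6, matplotlib 3.10.9 and scipy 1.17.1. The result of a further gene list is not reported here.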

Additional observations from a re-analysis of the deposited data

How the results depend on the processing

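No paired analysis was possible because the groups share no replicate numbers. Giving every cell the same total changed most: the genes called lower became 3, 3, 3, 4 and 3 of 10, the median differences of the single-drug treatments moved to -0.39, -0.41, -0.41 and -0.32, within the limit, and PFN1 turned to -0.66 in the combination, TMSB10 to 0.15 and TPM1 to 0.020 after 16 h of celecoxib. The rescaling removes the difference in total per cell by its construction. The genes called higher, 0 on the deposited scale, became 1 after 48 h of paclitaxel, 1 after 16 h of celecoxib and 2 in the combination by median E, and in the combination 4 by the ratio of linear means, 1 with a pseudocount of 1, 1 without wells noted as 0 or debris and 2 in index block 1 alone. TMSB4X turned to 0.88 (paclitaxel 48 h) and 1.15 (celecoxib 16 h) by median E and to 0.085 (celecoxib 2 h) by linear means. The log2 ratio of TMSB10 to TMSB4X after 48 h of paclitaxel had a median of 4.42 over the 35 cells with both genes above 0. By linear means, which take in all cells of the condition, it was -1.03. The cause of these was not tested. The mean r over pairs was 0.35 (paclitaxel 16 h) and 0.41 (combination) on the deposited scale. With genes of a control mean E of at least 5 only, 80.1%, 75.1%, 63.0%, 98.7% and 1.89% were lower on the deposited scale. Leaving out TMSB4X, taking TMSB4X in cells above 0 only and the filter by mean E over all conditions were added after the data were seen. With no replicate cultures named, the spread between cultures is unknown, and reads per cell are not given.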

Other observations

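TMSB4X also varied across cells with genes outside the actin system, which were looked up after its split was seen. Across the cells of a condition at the same total, TMSB4X had its highest mean r with ANXA1 (0.51, 0.36 to 0.58 over the 6 conditions), an annexin of the plasma membrane, NQO1 (0.45), a quinone reductase, GPM6A (0.45), DPPA4 (0.45) and EFEMP1 (0.44), a matrix protein. Its lowest were with NDUFA13 (-0.47), a subunit of respiratory complex I, USP44 (-0.44), CKS2 (-0.43), DTNA (-0.43) and PLPP2 (-0.42). These are the ends of a ranking of 7561 genes, given as a description.

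The authors' annotation calls 31 of the paclitaxel 16 h cells suppressed and 23 control-like, from the expression values themselves. In mean E, suppressed minus control-like, ACTB differed by -0.86 and PFN1 by -0.90 on the deposited scale. At the same total they differed by -0.04 and -0.08, and the largest differences were those of TMSB4X (0.94) and TMSB10 (0.46). After 48 h of paclitaxel, 25 cells are called suppressed and 28 control-like. There ACTB differed by -1.09, ACTG1 by -1.20, PFN1 by -1.20 and TPM4 by -1.21 on the deposited scale. At the same total they differed by -0.34, -0.48, -0.47 and -0.60. CFL1 (0.24), TMSB10 (0.15), TPM1 (0.12) and MYL6 (0.02) were higher in the suppressed cells at the same total. After 2 h of celecoxib (33 and 26 cells) the differences of ACTB and PFN1 at the same total were 0.15 and -0.09. The largest there were those of TMSB4X (1.59), TPM3 (-0.42) and TMSB10 (-0.40).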
